A study of Homo sapiens with 41 samples.

Results

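The cytosolic ribosomal protein genes were examined in 3 lists of Elongin A binding sites from DLD1 cells, a human colon cancer cell line. The members are the protein-coding genes of the GENCODE annotation on hg19 whose symbol is RPL or RPS followed by a number with an optional letter or L, together with RPLP0, RPLP1, RPLP2 and RPSA. The rule found 82 genes of 19820 protein-coding genes, of which 50 encode proteins of the large and 32 of the small ribosomal subunit. The RPS6K kinase genes and pseudogenes were left out. The rule itself used no measured values, although the members were chosen with earlier results of these data known. All cells were wild-type DLD1 cells without siRNA, fixed with formaldehyde. One list came from CUT&RUN with a goat antibody to Elongin A (2 replicates, with 1 goat IgG control), one from CUT&RUN with a mouse antibody (1 sample and 1 mouse IgG control), and one from ChIP-seq (1 sample and 1 input control), so that 7 of the 41 samples of the series stand behind them. The goat antibody list held 8720 peaks, the mouse antibody list 2338 and the ChIP-seq list 186. No list separates replicates and none carries read totals, so the values below have no replicate error and the depth is unknown. A member was counted as holding a peak when a peak overlapped the gene, or 1 kb on either side, by at least 1 bp. The intervals given are 95% Wilson intervals, which cover counting error only, and no test was made across genes, which are not replicates. As a check of the cell type, goat antibody peaks lay at 5 of 10 colon epithelial marker genes (interval 23.7 to 76.3%) and at 1 of 5 marker genes of other cells (interval 3.62 to 62.4%), PTPRC, against 21.6% of all protein-coding genes. Of 6 markers of other cells listed, 1 was not matched. In the mouse antibody list the counts were 3 of 10 and 1 of 5, against 7.71% of all genes, and the highest fold enrichment, 5.55, was that of PTPRC. These intervals overlap, so the check does not separate the cell types. Peak lists do not measure expression.

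Ribosomal proteins assemble with ribosomal RNA into the small subunit, which reads the mRNA, and the large subunit, which joins the amino acids. Their genes are short, are transcribed at high rates in growing cells, and start transcription at a C within a run of C and T, the 5′ terminal oligopyrimidine sequence through which translation of the mRNAs is controlled. Many carry small nucleolar RNAs (snoRNAs) in their introns, box C/D snoRNAs guiding methylation and H/ACA snoRNAs guiding pseudouridylation of RNA. Elongin A is a subunit of the Elongin complex, which stimulates elongation by RNA polymerase II in vitro and can also act in a ubiquitin ligase that targets the polymerase.

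The starts of these genes were read from the GRCh37 sequence, 80 bases before to 20 bases from the transcription start site (TSS) of the Ensembl canonical transcript, with the TSS as base 81. The 8 members below are those whose peaks are described first, namely the 6 with the highest goat antibody fold enrichment, RPL5 with the most peaks and RPL22 with the ChIP-seq peak. They are followed by 3 paralogs that held no peak. Capitals mark a run of at least 5 C or T that reaches within 10 bases of the TSS, and any of 5 short words described after the sequences.
RPS2 (chr16:2014808-2014907, minus strand): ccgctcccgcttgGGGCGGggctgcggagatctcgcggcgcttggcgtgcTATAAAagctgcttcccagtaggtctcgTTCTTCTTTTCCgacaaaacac
RPS9 (chr19:54704646-54704745, plus strand): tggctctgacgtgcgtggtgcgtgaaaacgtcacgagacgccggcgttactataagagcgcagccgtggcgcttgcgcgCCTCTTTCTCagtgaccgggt
RPL41 (chr12:56510337-56510436, plus strand): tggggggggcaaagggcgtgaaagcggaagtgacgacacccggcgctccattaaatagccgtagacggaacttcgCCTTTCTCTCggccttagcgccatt
RPL35A (chr3:197676981-197677080, plus strand): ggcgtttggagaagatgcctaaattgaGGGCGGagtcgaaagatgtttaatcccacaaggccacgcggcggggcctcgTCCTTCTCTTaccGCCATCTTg
RPL3 (chr22:39715609-39715708, minus strand): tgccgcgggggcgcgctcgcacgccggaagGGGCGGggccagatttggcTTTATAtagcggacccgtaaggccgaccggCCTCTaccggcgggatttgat
RPL36AL (chr14:50087325-50087424, minus strand): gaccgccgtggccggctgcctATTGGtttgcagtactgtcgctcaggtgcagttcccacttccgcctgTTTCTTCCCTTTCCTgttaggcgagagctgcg
RPL5 (chr1:93297517-93297616, plus strand): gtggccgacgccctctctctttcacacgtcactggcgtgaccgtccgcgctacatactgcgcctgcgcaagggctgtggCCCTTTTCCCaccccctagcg
RPL22 (chr1:6259636-6259735, minus strand): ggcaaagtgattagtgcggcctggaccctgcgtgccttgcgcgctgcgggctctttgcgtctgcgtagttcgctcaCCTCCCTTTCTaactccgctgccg
RPL10L (chr14:47120965-47121064, minus strand): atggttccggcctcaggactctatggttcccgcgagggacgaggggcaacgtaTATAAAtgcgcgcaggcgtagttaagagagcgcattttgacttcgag
RPL39L (chr3:186857265-186857364, minus strand): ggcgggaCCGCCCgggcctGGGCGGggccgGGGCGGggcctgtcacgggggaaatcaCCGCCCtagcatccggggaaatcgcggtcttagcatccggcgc
RPS27L (chr15:63449657-63449756, minus strand): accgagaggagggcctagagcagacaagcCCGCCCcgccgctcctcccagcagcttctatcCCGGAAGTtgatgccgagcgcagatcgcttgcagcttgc

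A run of 8 or more C or T reached within 10 bases of the TSS at 71 of the 82 members (86.6%, interval 77.6 to 92.3%) and at 14.9% of all protein-coding genes. The TSS itself was a C at 63 members (76.8%), against 10.7% of all genes. The median longest run was 11.5 bases in the members and 4 in all genes. The paralogs RPL10L, RPL39L, RPL3L and RPS27L had runs of 4, 4, 5 and 3 bases, and none of them started at a C. RPL36AL, a paralog of RPL36A, differed from these 4 with a run of 15 bases and a C at its TSS. RPL3 started at a C within a run of only 5 bases. Of the 59 members that had both a C at the TSS and a run of 8 or more, 51 held a goat antibody peak (86.4%, interval 75.5 to 93.0%), as did 15 of the 23 others (65.2%, interval 44.9 to 81.2%), and these intervals overlap. Without the 4 paralogs among the others, the second share was 15 of 19 (78.9%, interval 56.7 to 91.5%), a restriction chosen after seeing the data. The 5 words were searched on both strands from 250 bases before to 50 after the TSS. TATAAA, the TATA box core, was found at 8.54% of members and 9.72% of all genes, and GGGCGG, the GC box, at 62.2% and 61.2%. CCAAT stood in 34.1% and 35.9%. CCGGAAGT, a word bound by ETS factors, was found at 13.4% of members and 6.06% of all genes, and AAGATGGC, a word bound by YY1, at 12.2% and 4.04%. None of these words contains another, and a match is a description of the sequence only.

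Ribosomal protein genes held goat antibody peaks more often than protein-coding genes as a whole. A peak lay at 66 of 82 members (80.5%, interval 70.6 to 87.6%), against 21.6% of all protein-coding genes, 17.2% of those no longer than the longest member, and 15.3% of those whose transcript was no longer than the longest member transcript. The median member transcript was 4.486 kb long, and that of all protein-coding genes 22.452 kb. None of these backgrounds was matched for expression, and the paper reports stronger Elongin A enrichment at genes of higher expression. The paper's pathway analysis of Elongin A-occupied genes already placed ribosomal proteins among the top categories. A part played by expression was not tested here. The 172 peaks at members made up 19 members with 1 peak, 18 with 2, 14 with 3 and 15 with 4 or more. At least 2 peaks lay at 47 members (6.91% of all protein-coding genes), at least 3 at 29 members (2.82% of all) and at least 4 at 15 members (1.51% of all). Fold enrichment is the ratio of the signal at the summit to the local control background as given by the authors' peak caller. A peak with a fold enrichment of at least 5 lay at 45 members, against 8.6% of all protein-coding genes. The highest fold enrichment per gene had a median of 6.10 in the 66 members, with a range of 3.21 to 14.8, and a median of 4.63 in all protein-coding genes with a peak. The peaks were also wide. Their median width was 505 bp against 362 bp in the whole list, and 39 of the 172 (22.7%) spanned 1000 bp or more, against 4.51% of all peaks.

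Related gene groups differed in how often they held a peak. Genes of the mitochondrial ribosome, which translates mRNAs encoded in mitochondria, held goat antibody peaks at 14 of 78 (17.9%, interval 11 to 27.9%). The initiation and elongation factors of translation held them at 27 of 70 (38.6%, interval 28.0 to 50.3%). Of 26 ribosome assembly genes 11 held a peak (42.3%, interval 25.5 to 61.1%), the highest fold enrichment being 17.6 at NCL, which encodes nucleolin, and the most peaks being 11 at NPM1, which encodes nucleophosmin. The interval of the cytosolic ribosomal protein genes lay above those of all 3 groups. These groups have longer transcripts than the members, with medians of 8.41, 19.4 and 11.7 kb. Among genes that encode cytosolic ribosomal proteins under other symbols, RACK1, whose product sits on the small subunit, held 3 goat antibody peaks with a highest fold enrichment of 8.89. FAU, which encodes a ribosomal protein fused to a ubiquitin-like sequence, held none in that list.

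**Figure D1:**
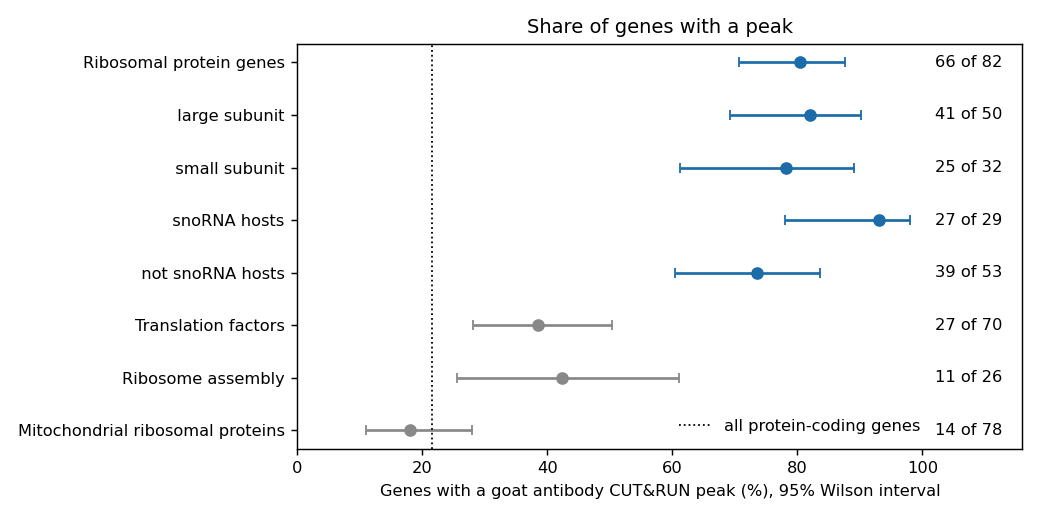
Share of genes with a goat antibody CUT&RUN peak in the gene or 1 kb either side (x axis, percent), for the ribosomal protein genes and 4 subsets (blue) and 3 related groups (grey). Points are shares, bars 95% Wilson intervals, and the dotted line all protein-coding genes at 21.6%. The ribosomal protein genes stand at 80.5% and the mitochondrial ribosomal protein genes at 17.9%.

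The strongest goat antibody peaks stood at RPS2 and RPS9, both of the small subunit. The peak at RPS2, whose protein lies at the mRNA entry of the ribosome, had a fold enrichment of 14.8 and ranked 16 of 8720, spanning chr16:2010559-2012281 with its summit 711 bp past the transcript end, where NDUFB10 was the nearest coding gene. The peak at RPS9 had 14.5 and ranked 20, spanning chr19:54713280-54714335 with its summit 2232 bp past the end of the canonical transcript and inside longer annotated transcripts of the gene. At RPL41, which encodes the smallest ribosomal protein, a peak of 12.9 lay at chr12:56509846-56510387, with its summit 186 bp upstream of the TSS whose sequence is given above, and a second of 5.71 covered the transcript end. RPL35A held 6 peaks, 5 of them with fold enrichments of 4.05 to 4.91 in introns and the strongest, 12.1, at chr3:197682930-197684658, with its summit 574 bp past the end, where IQCG was the nearest coding gene. RPL3, which reaches close to the peptidyl transferase centre, held 5 peaks. Its strongest, of 10.9, lay in an intron at chr22:39712300-39714523, and another of 9.64 covered the end, with its summit 1603 bp past it. RPL36AL had a single peak of 10.1 that covered its TSS, with the summit 109 bp inside the transcript at chr14:50086880-50087701. The windows of RPL36AL, RPL41 and RPS9 also hold the TSS of other coding genes, MGAT2, ZC3H10, and LILRB3 with LILRA6. Signal of these neighbours, and of NDUFB10 and IQCG near the strongest peaks of RPS2 and RPL35A, cannot be told apart from that of the member.

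Other members with high fold enrichment were RPL13A with 8.97, RPL28 with 8.75, RPS12 with 8.62, RPL21 with 8.06, RPS29 with 7.83, RPL27A with 7.61, RPSA with 7.49 and RPS23 with 7.46. RPL13A, RPL21 and RPSA had their strongest summit past the transcript end, at 889, 831 and 1279 bp. The strongest peak counted for RPL28 lay 7463 bp past the canonical end, where UBE2S was the nearest coding gene, and RPL28 had a second peak of 6.50, 347 bp upstream of its TSS. RPS12 was nearly filled by 1 peak 4965 bp wide, which covered 97.1% of its transcript. RPL27A held the widest peak, of 5390 bp. At RPS29 the 32 bp at all 3 summits occurred more than once in the genome. RPL37A held 6 peaks, of 4.05 to 7.14, all inside its transcript and none over the TSS or the end. RPL37 held 5, of 3.46 to 5.49, 4 of them inside the transcript. RPL9 held 4, of 3.36 to 6.16, the highest over its end.

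**Figure D2:**
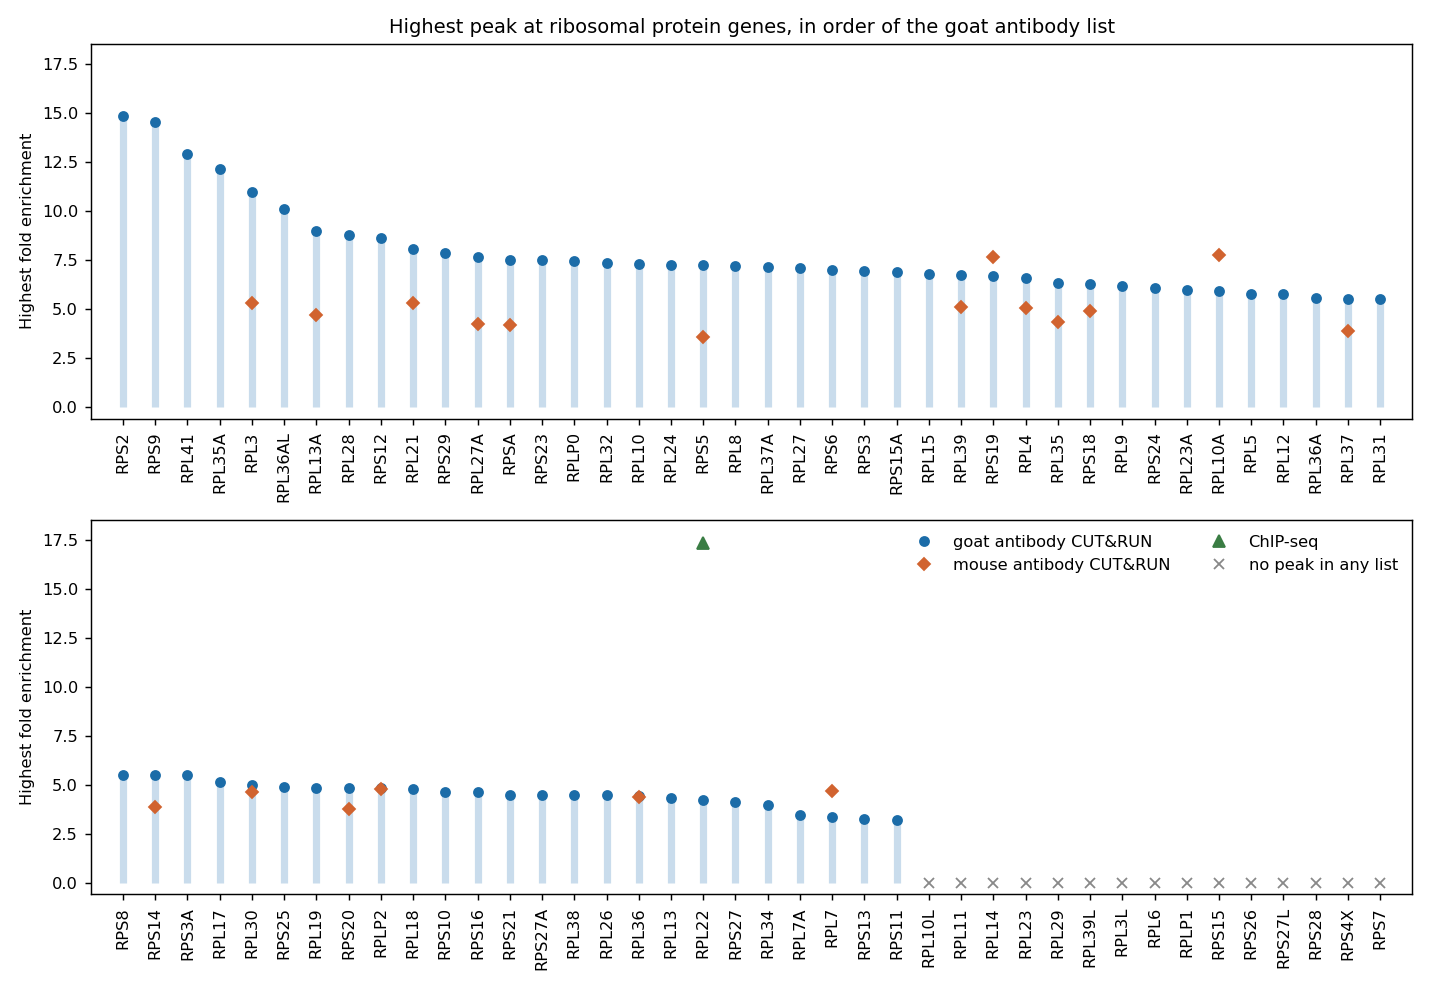
Highest fold enrichment (y axis) of a peak at each ribosomal protein gene reported by name (x axis), in falling order of the goat antibody list (circles, the values also drawn as stems), with the mouse antibody list (diamonds) and the ChIP-seq list (triangle). Goat antibody values run from 14.8 at RPS2 to 3.21, and crosses mark genes with no peak in any list.

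Members were grouped by the place or role of their proteins. In the 5S particle, RPL5 and RPL11 escort 5S ribosomal RNA into the large subunit and also bind MDM2. RPL5 held 8 peaks, the most of any member, with fold enrichments of 3.45 to 5.75, spread from 182 bp upstream of the TSS to the transcript end, whereas RPL11 held none. The stalk recruits translation factors. RPLP0 held 4 peaks with a highest value of 7.45, RPL12 held 3 with 5.73, RPLP2 held 1 with 4.83, and RPLP1 held none. Both mRNA entry genes held peaks, RPS3 with 5 up to 6.92 and RPS2 with the 14.8 given above. One of the 5 counted for RPS3, of 6.91, had its summit 15295 bp past the canonical end, where KLHL35 was the nearest coding gene. All 8 genes of the exit tunnel and its rim held a peak (interval 67.6 to 100%, which holds the 80.5% of all members), with a median highest value of 5.71, and RPL4, RPL17 and RPL23A held 5, 4 and 4. RPL17 shares its span with the readthrough gene RPL17-C18orf32, so peaks there cannot be assigned to one of them. Another coding gene was also nearest to the only peak of RPL26 (KRBA2) and to both peaks of RPL35 (WDR38 and ARPC5L). RPS27A, which encodes ubiquitin fused to a small subunit protein, held 4 peaks, the highest at 4.48 in fold enrichment.

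Among 20 genes mutated in Diamond-Blackfan anemia, an inherited failure of red cell production, 15 held a goat antibody peak (75%, interval 53.1 to 88.8%), close to the share of all members. RPS19, the gene most often mutated in that disease, held 5 peaks with fold enrichments of 4.24 to 6.69. The 32 bp at the summit of one of these, of 5.95, occurred 3376 times in the genome. RPS24 also held 5 peaks, from 3.46 to 6.04, and RPL35A held 6. RPL11, RPS7, RPS26 and RPS28 were among those that held none.

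Along the members, goat antibody peaks were most frequent just before the TSS and around the transcript end. A peak covered the TSS at 15 members (18.3%, interval 11.4 to 28.0%), against 1.87% of all protein-coding genes, and the end at 26 members (31.7%, interval 22.6 to 42.4%), against 0.918%. Both positions were covered at 5 members, RPL4, RPL5, RPL9, RPL23A and RPSA, against 0.111% of all genes. Of the 172 summits, 30 (17.4%) lay within 1 kb upstream of the TSS, 6 (3.49%) in the first 300 bp of the transcript, 100 (58.1%) in the rest of it, 20 (11.6%) within 1 kb past its end and 16 (9.30%) farther off. In protein-coding genes with transcripts no longer than those of members, 36.0% of summits lay in the rest of the transcript and 26.7% upstream. Within 300 bp of the TSS, 19 member summits lay upstream and 6 downstream, and over all protein-coding genes these numbers were 458 and 335. Inside the transcripts, 25 of 106 summits lay in exons (23.6%, interval 16.5 to 32.5%), and exons make up 26.5% of the transcript bases.

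**Figure D3:**
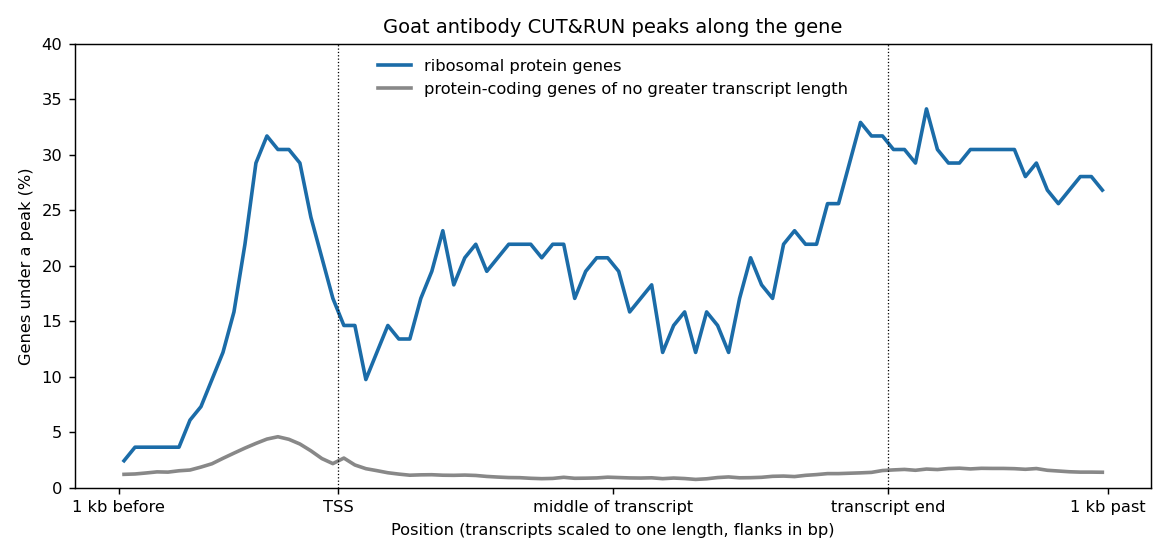
Share of genes under a goat antibody CUT&RUN peak (y axis, percent) by position (x axis) over 1 kb before the TSS, the transcript scaled to one length and 1 kb past its end, for the 82 ribosomal protein genes (blue) and for protein-coding genes with transcripts no longer than the longest of theirs (grey). The ribosomal protein genes reach 31.7% before the TSS, drop to 9.76% early in the transcript and reach 34.1% past the end, and the grey line stays at or below 4.60%.

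The scaled profile had a low point early in the transcript, where 9.76% of members were under a peak. With the transcript divided into 5 equal parts, the mean share was 15.2%, 21.0%, 18.3%, 15.9% and 26.6% from start to end. In the last of these parts it was 43.1% in members that host snoRNAs and 17.5% in the others. This difference was not particular to the end, as hosts had the higher share at every position of the scaled transcript. Early in the transcript 13.8% of hosts and 7.55% of the others were under a peak at 1 position. At another, in the middle, the shares were 51.7% and 5.66%. Over the 1 kb past the end, the share of all members stayed between 25.6% and 34.1%. Summits were also counted by distance outside the transcript. A summit lay 1 to 1000 bp before the TSS at 30 members (36.6%), 1001 to 2000 bp before it at 0 (interval 0 to 4.48%, which holds the 1.16% of all protein-coding genes), and 2001 to 5000 bp before it at 3 (3.66%). Past the end, the same distances held a summit at 20 members (24.4%), 12 (14.6%, interval 8.57 to 23.9%) and 10 (12.2%). Some summits within 1 kb past the end had another coding gene nearest, such as NDUFB10 at RPS2, IQCG at RPL35A and KRBA2 at RPL26. So did some farther off, such as TLCD1 at RPL23A. In all protein-coding genes the shares before the TSS were 5.40%, 1.16% and 1.91%, and those past the end were 1.41%, 1.18% and 2.44%. Of the 66 members with a peak, the strongest summit lay past the end in 18, before the TSS in 15 and inside the transcript in 33. By the canonical end, past-end summits made up 6 of the 10 strongest members, among them RPS2, RPS9, RPL35A, RPL13A and RPL28. Those of RPS9 and RPL28 lay inside the gene by its outermost end. Another coding gene was nearest to those of RPS2, RPL35A and RPL28. Taking the outermost start and end of each gene over all its transcripts, 20 summits lay upstream, 117 in the rest of the gene and 19 past the end.

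**Figure D4:**
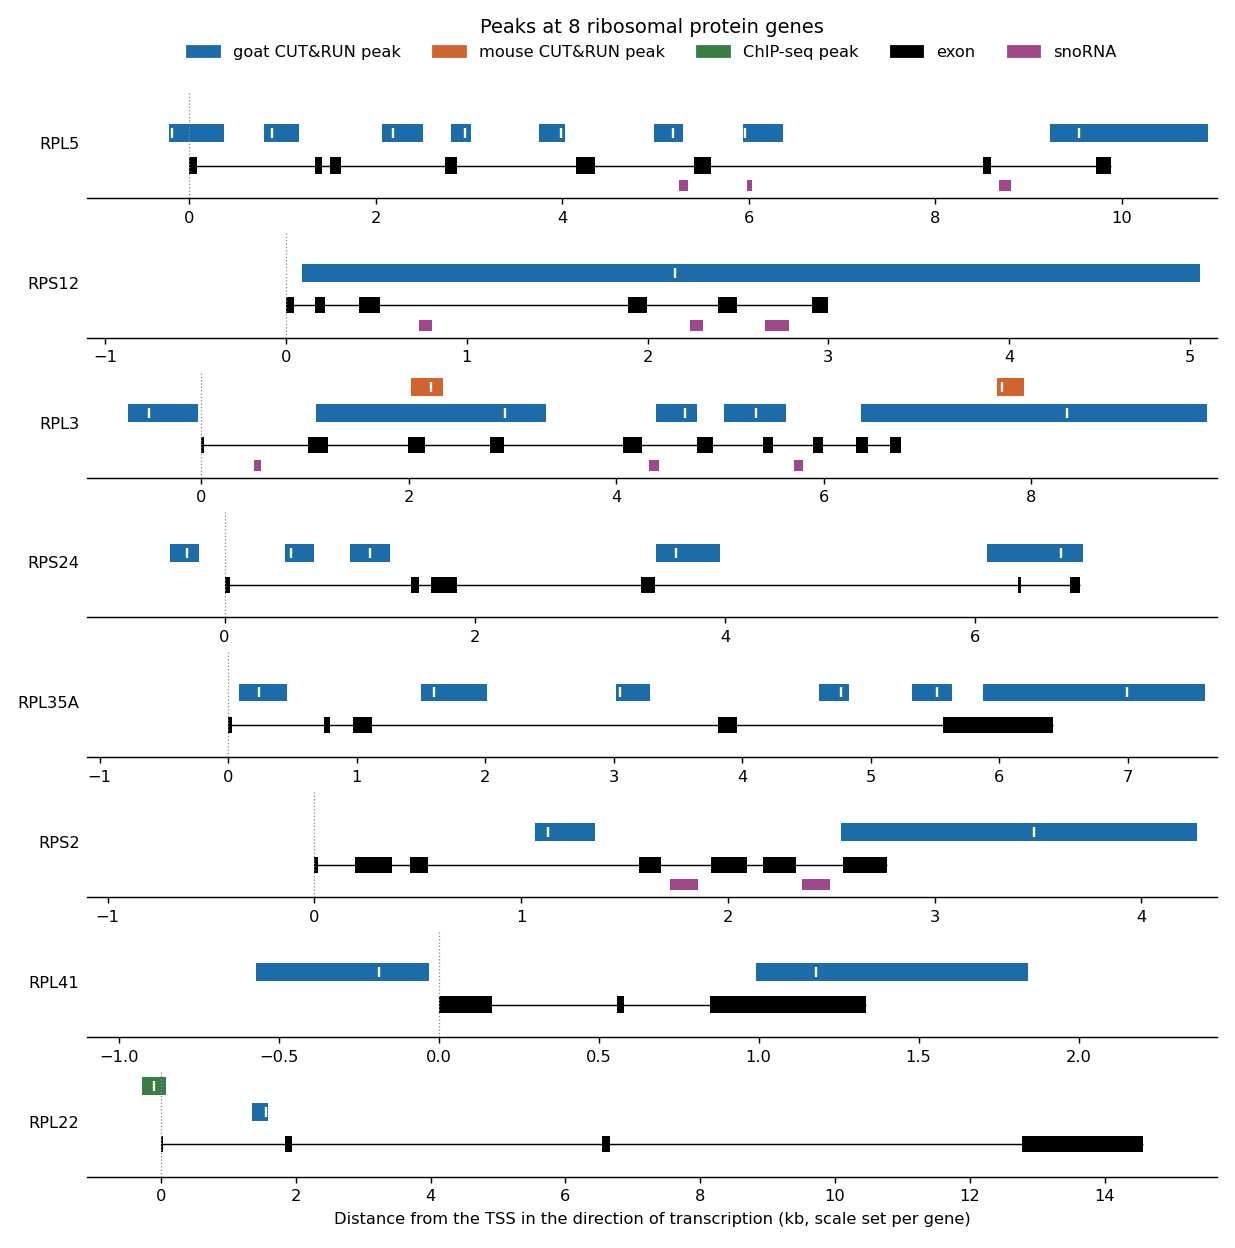
Peaks at 8 ribosomal protein genes by distance from the TSS in the direction of transcription (x axis, kb, scale set per gene). Blue bars are goat antibody, orange bars mouse antibody and green bars ChIP-seq peaks, with white ticks at the summits, above exons (black) and snoRNAs (purple). RPL5 carries 8 separate peaks, RPS12 1 peak of 4965 bp, and RPL22 a ChIP-seq peak over the TSS that no goat antibody peak overlaps.

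Members that host snoRNAs carried more peak cover than the others. In 29 members the annotation places 60 snoRNA loci on the same strand, 40 of box C/D and 20 of H/ACA type. A goat antibody peak lay at 27 of the 29 hosts (93.1%, interval 78.0 to 98.1%) and at 39 of the 53 other members (73.6%, interval 60.4 to 83.6%), and these intervals overlap. Without the 5 paralogs RPL3L, RPL10L, RPL39L, RPL36AL and RPS27L, none of which is a host, the second share was 38 of 48 (79.2%). All 17 box C/D hosts held a peak. The median share of the transcript under peaks was 31.1% in hosts and 2.97% in the others (4.14% without the paralogs), although their median transcript lengths were 4.375 and 4.522 kb. The highest fold enrichments were alike in the medians, 5.95 in hosts and 6.16 in the others. RPS12 with 97.1%, RPSA with 84.5%, RPL27A with 77.8%, RPS3 with 59.9%, RPL17 with 58.0% and RPL3 with 53.4% were the hosts with the most cover. Cover was also high at some of the others, such as RPL10A with 60.6% and RPS6 with 56.4%. RPS7 and RPL23 were the hosts without a peak.

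**Figure D5:**
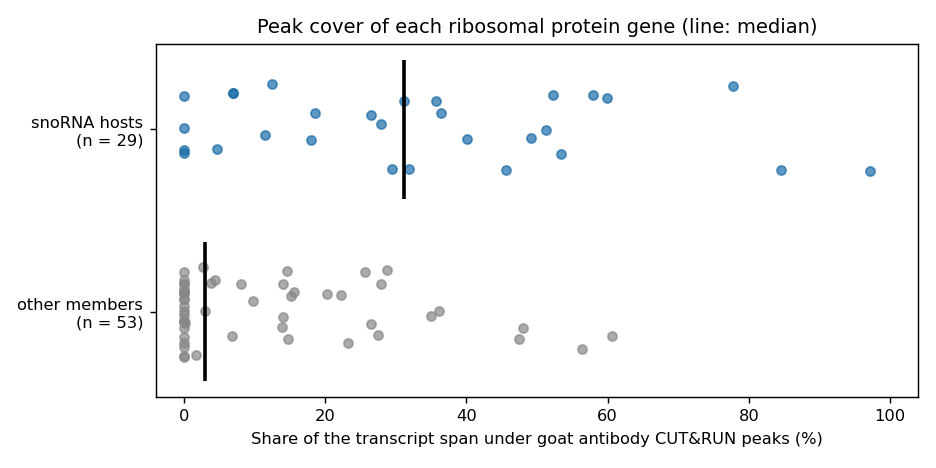
Share of the transcript span under goat antibody CUT&RUN peaks (x axis, percent) for each ribosomal protein gene, split into 29 snoRNA hosts (blue) and 53 other members (grey). Each point is a gene, spread vertically for legibility, and the black lines are medians, 31.1% in hosts and 2.97% in the others.

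Goat antibody peaks overlapped part of the snoRNA loci. Of the 60 loci, 20 were overlapped by a goat antibody peak (33.3%, interval 22.7 to 45.9%), and none held a summit. In the mouse antibody list, 1 summit lay inside a snoRNA, SNORA27 of RPL21, in a peak with a fold enrichment of 4.66. Peaks covered 30.03% of snoRNA bases, 32.3% of the intron bases of the hosts and 42.7% of their exon bases. In members without snoRNAs the values were 9.27% of intron and 14.3% of exon bases. RPS12 had all 3 of its snoRNAs, SNORD101, SNORD100 and SNORA33, under its single wide peak. RPSA and RPL27A had both of theirs covered.

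The large and small subunits had overlapping intervals in the goat antibody list. A peak lay at 41 of 50 large subunit genes (82.0%, interval 69.2 to 90.2%) and at 25 of 32 small subunit genes (78.1%, interval 61.2 to 89.0%), with median highest fold enrichments of 6.16 and 6.04. The large subunit genes carried 108 peaks, or 2.16 a gene, and the small subunit genes 64. A peak covered the TSS at 12 of 50 large subunit genes (24%, interval 14.3 to 37.4%) and at 3 of 32 small subunit genes (9.38%, interval 3.24 to 24.2%), RPS9, RPS29 and RPSA, and these intervals overlap. The transcript end was covered at 15 of 50 and 11 of 32. The difference between hosts and other members was seen within each subunit, with median covered shares of 31.1% and 1.65% in the large and 27.2% and 3.41% in the small subunit.

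The mouse antibody list, the smaller of the CUT&RUN lists, held fewer peaks at members. A peak lay at 19 of 82 members (23.2%, interval 15.4 to 33.4%), against 7.71% of all protein-coding genes and 5.08% of those with transcripts no longer than the longest of members. All 19 also held a goat antibody peak, and a peak in both lists was found at 4.67% of all protein-coding genes. Of the 27 mouse antibody peaks at members, 20 overlapped a goat antibody peak (74.1%, interval 55.3 to 86.8%), against 32.4% of all mouse antibody peaks. Of their summits 9 lay within 1 kb upstream of the TSS, 10 in the transcript past its first 300 bp, and 0 in the first 300 bp. Hosts held a mouse antibody peak at 11 of 29 (37.9%, interval 22.7 to 56.0%) and other members at 8 of 53 (15.1%, interval 7.85 to 27.1%), and these intervals overlap. The other members include the 5 paralogs, none of which held a mouse antibody peak. For the subunits, the counts were 13 of 50 and 6 of 32.

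The highest mouse antibody values were 7.74 at RPL10A and 7.61 at RPS19. The summit at RPL10A lay 318 bp upstream of its TSS, where no goat antibody peak overlapped, although a goat antibody peak of 5.89 covered the end of that gene. At RPS19 the strongest peaks of both lists overlapped past the transcript end, with summits at 174 bp in the mouse and 218 bp in the goat antibody list, and a second pair, with values of 5.46 and 4.24, overlapped 273 and 298 bp upstream of the TSS. RPL21 and RPL3 followed with 5.27 each. The 32 bp at the summit of that RPL21 peak occurred 20 times in the genome. RPL39, whose protein lines the exit tunnel, had 5.08 at 230 bp upstream, inside a goat antibody peak of 5.91. RPL4 had 5.03 at its TSS and 4.88 at its end, both within goat antibody peaks. RPS18 had 4.88, RPLP2 4.79, RPL7 4.70 and RPL13A 4.70. The 32 bp at the RPL13A summit, its only one in that list, occurred 28 times in the genome. RPL27A held 4 mouse antibody peaks, of 3.44 to 4.21, all in exons and all inside the goat antibody peak of 5390 bp.

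The ChIP-seq list held a peak at 1 member, RPL22 (1.22%, against 0.777% of all protein-coding genes, so that the share lay near the background). The peak spanned chr1:6259582-6259936, covered the TSS of RPL22 shown above with its summit 99 bp upstream, and had a fold enrichment of 17.3, which ranked 37 of 186. The TSS of RNF207 also lies in the window of RPL22. No goat or mouse antibody peak overlapped it, and the only goat antibody peak of RPL22, of 4.23, lay in an intron 1553 bp past the TSS. The members with the strongest CUT&RUN peaks, RPS2 and RPS9 among them, had no ChIP-seq peak.

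No peak in any list lay at 16 members. Among these were RPL3L, RPL6, RPL10L, RPL11, RPL14, RPL23, RPL29, RPL39L and RPLP1 of the large, and RPS4X, RPS7, RPS15, RPS26, RPS27L and RPS28 of the small subunit. Absence from a list says that no peak passed the authors' threshold, not that Elongin A was absent. The set holds 4 of the 5 paralogs, the exception being RPL36AL. RPL3L, expressed in muscle, and RPL10L, expressed in testis, held no peak, while their counterparts RPL3 and RPL10 held 5 and 2, with highest values of 10.9 and 7.27. RPL39L held none and RPL39 held 3, and RPS27L held none and RPS27 held 1 of 4.11. For RPL36A and RPL36AL the order was the other way, with 5.56 and 10.1. The expression of these genes was not part of the lists.

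Peaks at members were also set against neighbouring genes and repeated sequence. The member was the nearest protein-coding gene for 145 of the 172 goat antibody peaks. The TSS of another protein-coding gene lay in the window of 27 members, and among the 55 without one, 42 held a peak (76.4%, interval 63.7 to 85.6%). Ribosomal protein genes have many processed pseudogenes with near-identical exons. The 32 bp at the summit occurred more than once in the genome for 8 of the 172 goat antibody peaks and for 3.18% of all goat antibody peaks. Of 1592 ribosomal protein pseudogenes, 4 (0.251%) were overlapped by a goat antibody peak, and of 13807 other pseudogenes, 56 (0.406%). None of those peaks was also counted at a member. Reads that fit both a gene and its pseudogenes cannot be assigned with certainty, and a filter on mapping quality is not given in the sources used here.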

How the data were processed

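Elongin A was mapped in wild-type DLD1 cells, and the 3 peak lists were used as deposited. Per the submitters' processing notes and the methods, the authors used Bowtie2 (v2.3.4.1) for alignment to hg19, Picard (v1.88) against duplicates and MACS2 (v2.1.1) as the peak caller. The paper names goat IgG as the CUT&RUN control, and the labels list mouse IgG beside the mouse antibody sample. Whether the goat replicates were pooled before calling is not given in the sources used here. The deposited fold enrichment is a ratio over local background from the authors' caller. The caller's −log10 q-value, also deposited, set the stricter thresholds, and its p-value column was not used. The deposited score was not used. Read totals are not part of the lists, so the depth is unknown.

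Genes, snoRNAs and pseudogenes came from GENCODE release 44 lifted to GRCh37, with the Ensembl canonical transcript setting TSS and end. Peaks were assigned with Python 3.11.15 and pandas 2.3.3, and summit sequences were searched in the genome. Overlap rules were tested on simulated peaks. Named genes were the 15 members with the highest goat and 10 with the highest mouse antibody value, those with 4 or more goat antibody peaks, with a ChIP-seq peak or with none, and fixed functional groups. The bins past the end, the place of the strongest peak, the pseudogene comparison and the split by TSS sequence were chosen after values were seen. The members and lists were chosen with earlier results of these data known. Alternatives were peak thresholds, windows, member lists and summit lengths. The other experiments of the series were not analysed here. Some genes and sequences, counted in the totals, are not reported here.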

Additional observations from a re-analysis of the deposited data

How the results depend on the processing

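No paired analysis was possible because 1 list holds both goat antibody replicates and the other lists come from 1 sample each, so no replicate could be left out either. Counts within 1.5 times the reported one, shares within its interval and the median fold enrichment within its quartiles were taken as unmoved, and 94 values met this. With a fold enrichment of at least 5, mouse antibody peaks lay at 6 members (7.32%, against 2.32% of all protein-coding genes). At that threshold, goat antibody peaks lay at 16 of 32 small subunit members and at 25 of 53 members that host no snoRNA. They lay at 8.6% of all protein-coding genes. Without flanks, mouse antibody peaks lay at 11 members (13.4%, against 6.25%). With the outermost gene ends, 20 summits lay upstream and 117 in the rest of the gene. Repeated summits numbered 2 with 50 bp and 1 with 100 bp. Members without another TSS in the window, a restriction chosen after seeing the data, held goat antibody peaks at 42 of 55 and mouse antibody peaks at 12 of 55. With only peaks whose summit sequence occurs once, also chosen after seeing the data, the counts were 65 and 17 of 82. Otherwise the goat antibody count lay between 45 of 82 (54.9%), at a fold enrichment of at least 5, and 68 of 87, with 5 paralogs added. The share in the second case was 78.2%, below the 80.5% reported.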
